A study of Mus musculus with 5 samples.

Results

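Genes of the secretory pathway and of the unfolded protein response were followed in knee joints of mice that lack 2 matrix proteoglycans, epiphycan (Epyc) and biglycan (Bgn). The 40 genes were listed by name, for their known roles in folding, quality control and export of secreted proteins, and 38 of them were on the arrays, of 12393 genes in all. Fkbp10 and Fkbp14, which encode prolyl isomerases that act on collagen, were not among the named probe sets and were not analysed here. Where a gene had several probe sets, the brightest over all 5 arrays stood for it.

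Secreted proteins enter the endoplasmic reticulum (ER) through the Sec61 channel, fold there with chaperones, disulfide isomerases and prolyl isomerases, and leave in COPII-coated vesicles, while escaped chaperones are returned by KDEL receptors. When unfolded protein accumulates, the sensors encoded by Atf6, Ern1 and Eif2ak3 raise the transcription of chaperones, of degradation genes and of the factor CHOP. The factor ATF4 is raised mainly in translation. Chondrocytes, osteoblasts and fibroblasts of the joint secrete collagen in bulk and depend on this machinery, and so do the plasma cells of marrow, which secrete antibody. The comparison asked whether the joint's folding and export machinery differed in message level when the 2 proteoglycans were missing.

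The 3 double-null pools and the 2 wildtype pools were of male mice, 3 months old, on a hybrid C57/Bl6 and 129 background. Each pool held RNA from the whole tibio-femoral joints of 3 mice, 6 joints per pool, and was read on 1 Affymetrix array. The values came as 2 tables of the same 22690 probe sets, here called array types. Type A held double-null pool 3 and wildtype pool 2, and type B held double-null pools 1 and 2 and wildtype pool 1. Signals are MAS5 intensities on a linear scale, and differences are double-null minus wildtype on the log2(signal + 32) scale, quantile normalised, in a fit that allows for array type. Changes of dim genes come out smaller on this scale. A whole joint mixes cartilage, bone, marrow, tendon, muscle and synovium, so fewer cells of a type and less RNA per cell cannot be told apart. Precision is limited by how few arrays there are. The p-values measure the spread between these pools, with each gene's variance drawn towards that of genes of like signal. That shared part weighed more than the gene's own (prior degrees of freedom 9.80, residual 2).

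The targeted genes fitted their labels. Bgn read 211 ± 11.1 in double-null pools and 2708 ± 997 in wildtype pools (mean signal ± SD, n = 3 and n = 2), and Epyc read 5.17 ± 5.02 in double-null and 85.0 ± 8.79 in wildtype pools. Median signals of the arrays ran from 106 to 120. Background was judged from 27 probe sets for Bacillus sequences, absent from mouse samples, and the brightest of them read 63.5. Of the 38 members 37 lay above the highest control of every array, and Ern1 did not. Of the marker lists, 7 of 8 plasma cell, 5 of 5 osteoblast, 7 of 8 fibroblast and tendon, 8 of 9 chondrocyte, 10 of 10 skeletal muscle, 9 of 9 myeloid, 4 of 5 erythroid and 2 of 4 adipocyte markers did so. The exceptions were Tnfrsf17, Scx, Matn1, Hba-a1, Lep and Pck1.

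Some promoters of these genes hold short elements. The list was chosen by role and not by sequence. Its roles include genes that ATF6 and the other sensors raise, so a high share of matches was likely from the choice alone. The sequences are shown because the ER stress element stands before genes with positive and genes with negative differences. The ER stress element, bound by ATF6 together with NF-Y, was searched as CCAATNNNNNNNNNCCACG on both strands, from 250 bases before to 50 bases after the RefSeq start site (GRCm38.p6). It was found in 8 of the 32 members with a promoter entry (25%), against 37 of all 27025 genes with one (0.137%). A second form, ATTGGNCCACG, was found in 2 of the 32 members and in 12 of all genes (0.0444%). The UPR element TGACGTGG, bound by XBP1 and ATF6, was found in 3 of the 32 members and in 193 of all genes (0.714%). No member held matches to more than 1 of these 3. In the lines below, written 5′ to 3′ on the gene's strand, the match is in capitals, in either orientation.
Hspa5, chr2:34772005-34772089, + strand: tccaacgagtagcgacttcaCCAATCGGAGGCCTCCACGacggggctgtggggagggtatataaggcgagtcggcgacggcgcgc
Hsp90b1, chr10:86705623-86705671, - strand: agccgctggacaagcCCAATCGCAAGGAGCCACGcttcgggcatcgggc
Hsp90b1, chr10:86705518-86705566, - strand: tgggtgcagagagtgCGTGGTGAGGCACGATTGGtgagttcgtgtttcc
Dnajc3, chr14:118937812-118937860, + strand: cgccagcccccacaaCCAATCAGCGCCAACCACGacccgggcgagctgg
Canx, chr11:50325785-50325833, - strand: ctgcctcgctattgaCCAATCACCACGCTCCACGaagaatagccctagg
Calr, chr8:84847060-84847108, - strand: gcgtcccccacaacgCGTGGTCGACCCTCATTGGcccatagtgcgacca
Syvn1, chr19:6046517-6046565, + strand: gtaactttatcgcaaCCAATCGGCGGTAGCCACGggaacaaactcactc
Herpud1, second form, chr8:94386357-94386428, + strand: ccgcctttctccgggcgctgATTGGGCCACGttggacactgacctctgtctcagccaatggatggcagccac
Sec24d, UPR element, chr3:123267450-123267495, + strand: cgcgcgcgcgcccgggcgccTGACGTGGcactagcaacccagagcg

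None of the members changed past the threshold between double-null and wildtype joints, and their values lay on both sides of 0. Of the 36 members bright enough to be tested, 0 passed an adjusted p of 0.05 in either direction (limma, Benjamini-Hochberg over 7436 genes), and 0 passed an unadjusted p of 0.05. Over all 7436 genes 0.121% passed the first threshold and 6.17% the second. Adjusted p for the members ran from 0.82 to 1.0. Fitted differences of all 38 ran from -0.38 for Atf6 to 0.36 for Hspa5, with 21 positive and 17 negative, a median of 0.030 and a median SE of 0.18. The median over all genes tested was -0.011.

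The fit also bounds how large a difference these arrays allow. The 95% interval of the log2 difference lay within a 2-fold change in either direction for 38 of 38 members, and within a 1.5-fold change for 18. The lowest interval bound was -0.78, for Atf6, and the highest 0.73, for Hspa5. The first count depends on the arrays and the settings. It was 36 with a pseudocount of 1, where the dim Fkbp11 and Ern1 fell outside, and 36 with a replicate block, where Hyou1 and Kdelr2 did. It was 26 without wildtype pool 1, 32 on array type B alone, 33 if wildtype pool 2 or double-null pool 3 was dropped, and 38 if double-null pool 1 or 2 was. A missed threshold does not show that a gene was equal in both groups.

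**Figure D1:**
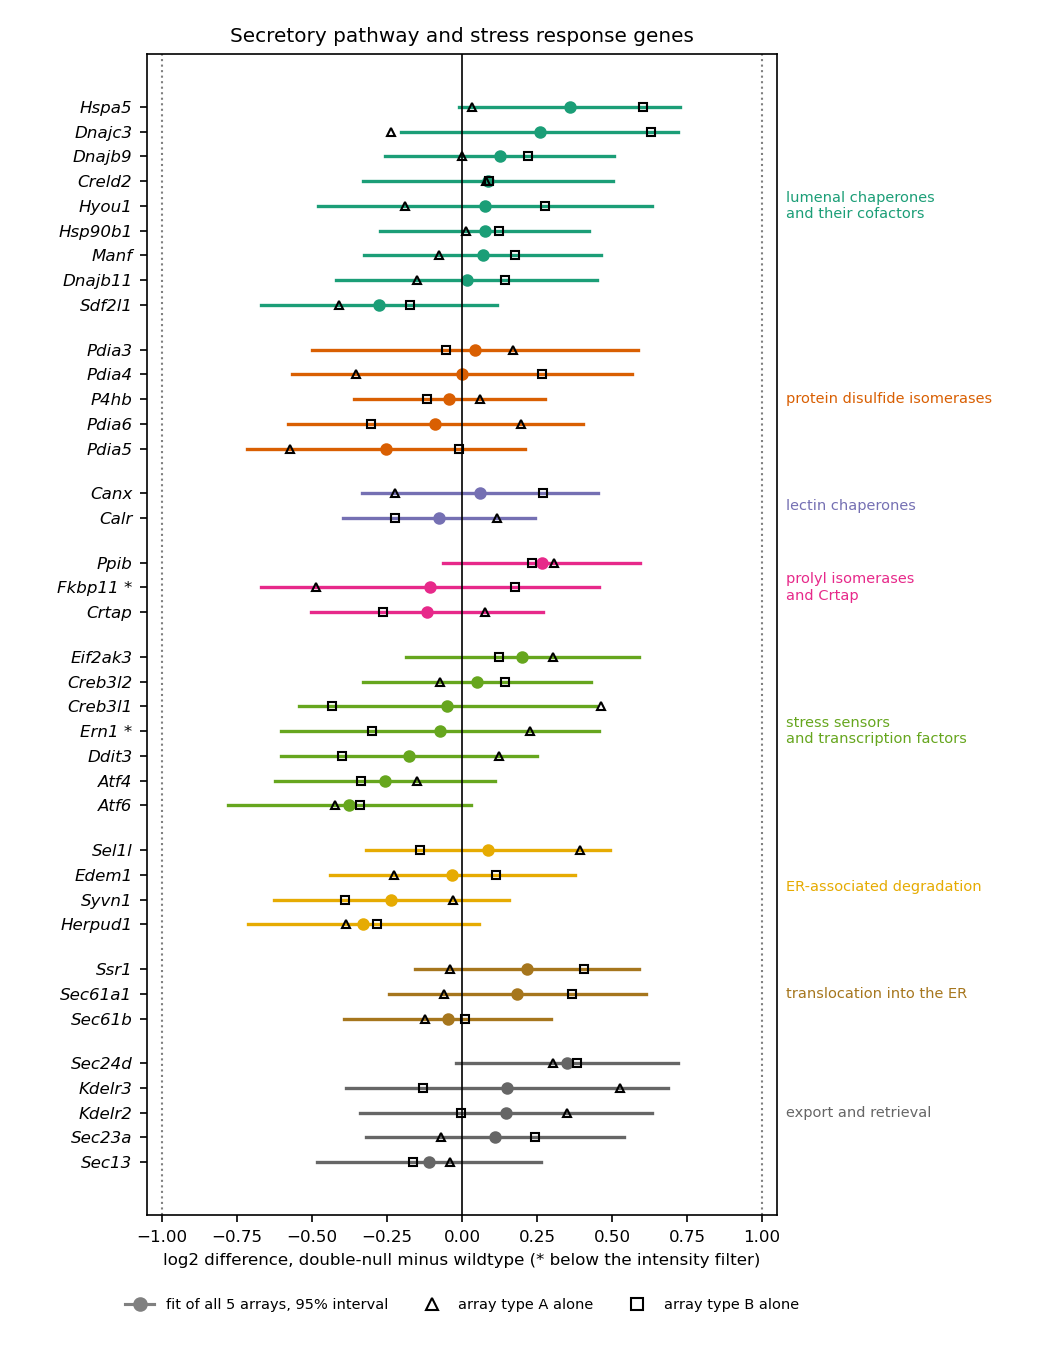
Log2 differences, double-null minus wildtype, of the 38 members by role. Filled circles with bars are the fit of all 5 arrays with its 95% interval, open triangles array type A and open squares array type B, each alone; dotted lines mark a 2-fold change, and every bar lies between them, from -0.78 (Atf6) to 0.73 (Hspa5).

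On the normalised scale the 3 double-null arrays were all higher than the 2 wildtype arrays for 4 of the 38 members (10.5%), Hspa5, Hsp90b1, Ppib and Sec24d. They were all lower for 5 (13.2%), Sdf2l1, Atf6, Atf4, Herpud1 and Syvn1. Over all genes tested these shares were 9.45% above and 10.2% below, so the members stood close to the rest of the array. If array type is ignored, the 5 pools can be arranged in 10 ways, so the smallest p an exact permutation test can give for a gene is 0.1. Arrangements kept within array types are fewer, and the smallest p would be larger. Within the array types 14 of 38 members had 1 sign on both, against 3519 of the 7436 genes tested, and the median over members was -0.034 in type A and 0.050 in type B.

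Among lumenal chaperones, 8 of 9 genes had positive differences, with a median of 0.076 and none past the threshold. The direction turned with array type, with a median of -0.075 in type A and 0.18 in type B. Hspa5 encodes BiP, the Hsp70 chaperone of the ER lumen that also holds the stress sensors inactive. It read 3307, 3710 and 2290 in double-null pools 1 to 3, against 2221 and 2228 in wildtype pools 1 and 2. The fitted fold was 1.28, with a 95% interval of 0.994 to 1.66 (log2 difference 0.36 ± 0.17 SE, limma adjusted p = 0.82). Pools 1 and 2 of the double-null group carried the difference, which was 0.60 in type B and 0.034 in type A, where double-null pool 3 stood beside wildtype pool 2. A second, dimmer probe set of Hspa5 gave 0.060. Hsp90b1, the Hsp90 chaperone of the ER, read 1654, 1634 and 1446 in double-null pools, against 1409 and 1436 in wildtype pools, so its groups were apart by less than the spread within the double-null pools (0.076 ± 0.16). Its other probe set gave 0.43.

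Sdf2l1, a cofactor of BiP that is induced by ER stress, went the other way. It read 279, 230 and 234 in double-null pools, against 296 and 322 in wildtype pools (log2 difference -0.28 ± 0.18, adjusted p = 0.90). Dnajc3, a co-chaperone of BiP that also restrains the sensor kinase of Eif2ak3, had 486, 446 and 384 in double-null pools, against 292 and 460 in wildtype pools. The groups overlapped, with 0.63 in type B and -0.24 in type A. Hyou1, the exchange factor of BiP, had 559, 1081 and 405 in double-null pools, against 632 and 467 in wildtype pools, so double-null pool 2 alone stood high. The remaining chaperone genes lay between 0.016 and 0.13: Dnajb11 and Dnajb9, which encode Hsp40 partners of BiP, and Manf and Creld2, secreted or lumenal stress-induced proteins. Creld2 overlapped between groups, at 166, 136 and 165 in double-null pools, against 148 and 153 in wildtype pools.

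**Figure D2:**
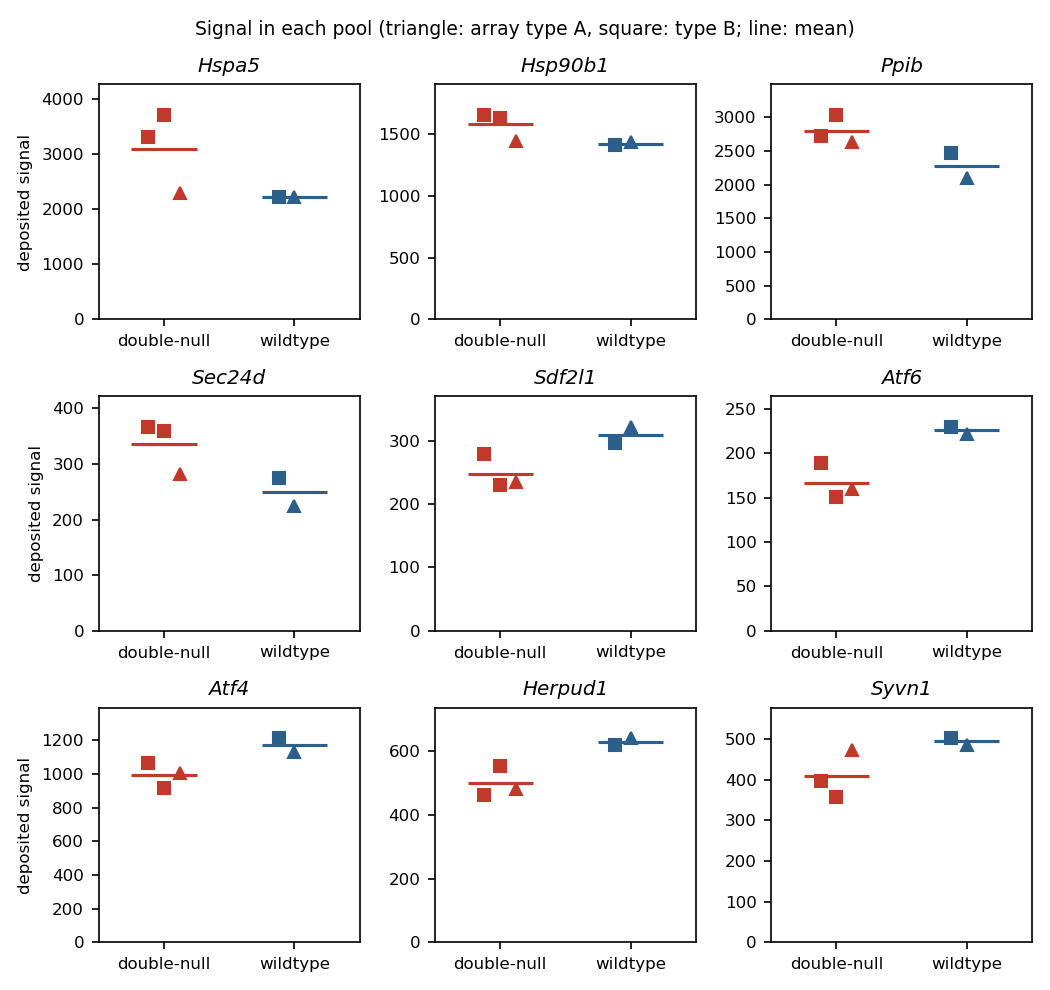
Deposited signal of the 9 members whose groups were apart, with double-null pools left and wildtype pools right in each panel. Triangles are array type A, squares type B and lines group means; in Hspa5 double-null pool 3, at 2290, sits close to the wildtype pools at 2221 and 2228.

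Disulfide isomerases, which form and rearrange the disulfide bonds of folding proteins, gave a median of -0.042 over 5 genes, 2 positive and 3 negative, with 0.058 in type A and -0.052 in type B. P4hb, the isomerase that is also the beta subunit of collagen prolyl 4-hydroxylase, read 3121, 2913 and 2863 in double-null pools, against 3359 and 2748 in wildtype pools. Its interval of -0.36 to 0.28 was the narrowest of the 38. Pdia5 had the smallest p of the group (112, 140 and 77.5 in double-null pools, against 135 and 128.3 in wildtype pools; -0.25 ± 0.21, adjusted p = 0.95), and its value of -0.57 in type A stood beside -0.011 in type B. Pdia6, which acts with BiP, had 511, 832 and 664 in double-null pools, against 802 and 580 in wildtype pools. Pdia3, the partner of the lectin chaperones, scattered widely among the double-null pools, with 2064, 966 and 1678, against 1401 and 1487 in wildtype pools. Pdia4 was at 0.00015, with 349 in double-null pool 1 and 174 and 148 in the others, against 206 and 197 in wildtype pools.

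The lectin chaperones, which hold glycoproteins until they are folded, overlapped between groups. Calr (calreticulin) read 3940, 4470 and 3903 in double-null pools, against 5084 and 3431 in wildtype pools (-0.077 ± 0.15, interval -0.40 to 0.24). Canx (calnexin) read 2813, 2196 and 1996 in double-null pools, against 1983 and 2332 in wildtype pools (0.059 ± 0.18). The 2 wildtype pools of Calr were farther apart than its double-null pools.

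Ppib, encoding cyclophilin B, the prolyl isomerase that forms a collagen-modifying complex with Crtap, read higher in all double-null pools. Its signals were 2722, 3031 and 2630 in double-null pools, against 2465 and 2101 in wildtype pools, so the groups did not overlap. The fold was 1.20 with an interval of 0.957 to 1.51 (log2 difference 0.27 ± 0.15, limma adjusted p = 0.85), with 0.31 in type A and 0.23 in type B. Its second probe set gave 0.18, with a negative value in type A. Crtap itself, whose product is the cartilage-associated subunit of that complex, read 429, 399 and 427 in double-null pools, against 501 and 407 in wildtype pools (-0.12 ± 0.18). Fkbp11, a prolyl isomerase prominent in antibody-secreting cells, was dim, with 48.1, 74.2 and 47.8 in double-null pools, against 55.6 and 77.2 in wildtype pools, and lay below the intensity filter.

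Of the stress sensors and transcription factors, 2 of 7 were positive and 5 negative (median -0.073). Their median turned sign between array types, at 0.12 in type A and -0.34 in type B. Atf6, the membrane-bound sensor whose cleaved form activates chaperone genes, read 188, 151 and 159 in double-null pools, against 230 and 222 in wildtype pools. All double-null pools lay below both wildtype pools, at a fold of 0.771 with an interval of 0.582 to 1.02 (log2 difference -0.38 ± 0.19, limma adjusted p = 0.83), and the value was alike in type A (-0.42) and type B (-0.34). Atf4, the factor translated when eIF2-alpha is phosphorylated, had 1063, 917 and 1006 in double-null pools, against 1213 and 1130 in wildtype pools (-0.26 ± 0.17, adjusted p = 0.90). A dimmer probe set of Atf4 gave 0.26, so the direction rests on the probe set. ATF4 is regulated mainly in translation, which arrays do not measure.

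Ddit3, encoding CHOP, the factor of prolonged stress, read 138, 160 and 164 in double-null pools, against 215 and 146 in wildtype pools. Wildtype pool 1 alone stood high, and the difference was 0.12 in type A and -0.40 in type B. Eif2ak3, encoding the sensor kinase PERK, had 430, 358 and 370 in double-null pools, against 357 and 295 in wildtype pools (0.20 ± 0.18), with the nearest pools of the 2 groups less than a unit apart. Ern1, encoding the sensor IRE1, was dim, at 34.5, 56.3 and 59.1 in double-null pools, against 69.0 and 43.8 in wildtype pools, and lay below the filter. Creb3l1 and Creb3l2 encode the related membrane-bound factors that drive the export genes of bone and cartilage cells. Creb3l1 had 275, 383 and 405 in double-null pools, against 454 and 289 in wildtype pools, at 0.46 in type A and -0.43 in type B. Creb3l2 had 228, 225 and 233 in double-null pools, against 209 and 247 in wildtype pools (0.051 ± 0.17).

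Genes of ER-associated degradation, which return misfolded proteins to the cytosol, were mostly negative and none passed, with 1 of 4 positive and a median of -0.13. Herpud1, a stress-induced scaffold of the degradation complex, read 463, 554 and 483 in double-null pools, against 620 and 642 in wildtype pools. The groups did not overlap, at a fold of 0.796 with an interval of 0.609 to 1.04 (log2 difference -0.33 ± 0.18, limma adjusted p = 0.85). Its second probe set gave -0.21, and the array types gave -0.39 and -0.28. Syvn1, the ubiquitin ligase of the complex, had 396, 357 and 474 in double-null pools, against 502 and 486 in wildtype pools (-0.24 ± 0.18), with -0.029 in type A and -0.39 in type B. Sel1l, the adaptor of that ligase, and Edem1, which selects misfolded glycoproteins, were at 0.088 and -0.032. Double-null pool 3 of Sel1l read 401, while the other pools of both groups lay between 203 and 301.

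Translocation genes overlapped between groups, with a median of 0.18 that was -0.061 in type A and 0.37 in type B. Ssr1, a subunit of the complex that assists the Sec61 channel, read 1894, 1754 and 1285 in double-null pools, against 1294 and 1345 in wildtype pools (0.22 ± 0.17, adjusted p = 0.95). Its dimmer probe sets gave -0.16 and 0.25. Sec61a1, the channel itself, had 943, 1235 and 729 in double-null pools, against 799 and 760 in wildtype pools (0.18 ± 0.20). In both, double-null pools 1 and 2 were high and pool 3 was below the wildtype pools, as the type values of 0.41 and -0.040 for Ssr1 and of 0.37 and -0.061 for Sec61a1 on types B and A show. The 5 other probe sets of Sec61a1 lay between -0.15 and 0.11. Sec61b, the small subunit of the channel, was at -0.048.

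Of export and retrieval genes, 4 of 5 had positive values, with a median of 0.15. The median was 0.30 in type A and -0.0038 in type B. Sec24d, a cargo-binding subunit of the COPII coat needed for collagen export, read 367, 360 and 282 in double-null pools, against 275 and 224 in wildtype pools. The groups did not overlap, at a fold of 1.27 with an interval of 0.986 to 1.65 (log2 difference 0.35 ± 0.17, limma adjusted p = 0.83), and both array types gave similar values, 0.30 in type A and 0.38 in type B. Its partner in the inner coat, Sec23a, had 536, 374 and 440 in double-null pools, against 372 and 465 in wildtype pools (0.11 ± 0.20). Sec13, of the outer coat, was at -0.11. Kdelr2 and Kdelr3, the receptors that retrieve chaperones, were at 0.15 each, and their pools overlapped widely. Kdelr2 had 2772 in double-null pool 2, against 1693 and 1749 in the other double-null pools and 2055 and 1382 in wildtype pools. A second, dimmer probe set of Kdelr2 gave -0.33 and was negative on both array types, so the direction rests on the probe set.

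Set beside the promoter sequences, members with either form of the ER stress element had values on both sides of 0. The 8 with the ER stress element had 5 positive and 3 negative values, from -0.24 for Syvn1 to 0.36 for Hspa5. Of the 2 with the second form, Herpud1 was at -0.33 and Dnajb11 at 0.016. The 10 with either form had a median of 0.038, and the other 22 members with a promoter entry had a median of -0.016. The remaining 6 have no entry and were not searched. The 3 with the UPR element, Sec24d, Sec23a and Kdelr3, had positive values, from 0.11 to 0.35, and 1 of the 3, Sec24d, had its groups apart. Sec24d alone was positive on both array types. Sec23a was at -0.069 in type A and 0.24 in type B, and Kdelr3 at 0.53 and -0.13. The match of Sec23a lies after the start site. A match is a description of letters, not of a bound site.

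**Figure D3:**
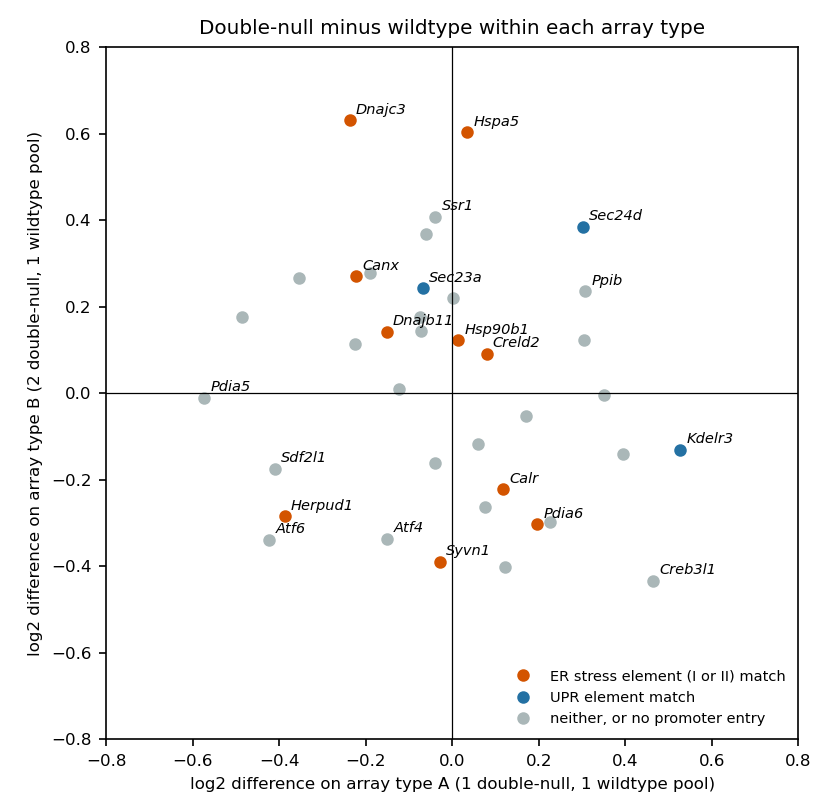
Log2 difference of each member on array type B (vertical) against array type A (horizontal), coloured by promoter match. Hspa5 stands at 0.034 in type A and 0.60 in type B, and Dnajc3 at -0.24 and 0.63, while Atf6 and Herpud1 are negative and Sec24d and Ppib positive on both.

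Other genes of the pathway, from lists of 138 genes of which 123 were measured, were examined in the same fit. Of those tested 0 passed the threshold (limma, Benjamini-Hochberg over all genes), and 4 higher and 1 lower passed an unadjusted p of 0.05. Their median was 0.025, with 69 positive and 54 negative, and groups were apart upward in 12.2% and downward in 4.88%. Among 17 other genes of collagen folding and modification, 12 were positive, with a median of 0.079. P4ha2, a catalytic subunit of collagen prolyl 4-hydroxylase, read 164, 128.1 and 164 in double-null pools, against 99.6 and 75.3 in wildtype pools (0.66 ± 0.21, adjusted p = 0.54), and Fkbp9, a prolyl isomerase, had 1623, 1276 and 1173 in double-null pools, against 998 and 830 in wildtype pools (0.47 ± 0.17, adjusted p = 0.66). P3h1, the prolyl 3-hydroxylase of the Crtap complex, was at 0.30, and Serpinh1, the collagen chaperone, at 0.049. The median of this list was 0.29 in type A and -0.062 in type B.

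Among 19 other stress response targets 10 were positive and 9 negative. Atf3, Trib3 and Slc7a11 of this list were not above the control probe sets on every array. Nupr1, a stress-induced nuclear protein, read 327, 419 and 376 in double-null pools, against 230 and 233 in wildtype pools (0.64 ± 0.18, adjusted p = 0.35), with 0.64 on both array types. Xbp1, whose spliced message encodes an activator of secretory genes, was at 0.043, Wfs1 at 0.22 and Shmt2 at -0.19. The other degradation genes had a median of -0.12 over 16, with Derl1 at 0.42, Edem2 at -0.38 and Ube2g2 at -0.33. The other translocation genes had a median of 0.11 over 17, with Spcs3 at 0.32, Ssr3 at 0.32 and Srp68 at -0.32. The other export genes had a median of 0.050 over 29, with Lman1 at 0.34, Cope at -0.22 and Sec24b at -0.54. The remaining folding, redox and glycan genes had a median of -0.049 over 25, with Txndc5 at 0.29, Selenof at 0.22 and Ero1a at -0.29.

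The cargo of this machinery, the matrix proteins that these cells secrete, was read in the same fit. Of 27 matrix genes that the pathway exports, 17 were positive and 10 negative (median 0.28). Of the 25 tested 4 passed the threshold, all higher in double-null pools, against 0.121% of all 7436 genes tested. The list was chosen with earlier results of these data known, so its count is no independent result. Col3a1, which encodes the chain of collagen III, read 9252, 8153 and 10072 in double-null pools, against 3656 and 3221 in wildtype pools (1.46 ± 0.16, limma adjusted p = 0.0026). Lum, encoding the collagen-binding proteoglycan lumican, was at 1.19, Col6a1, a chain of collagen VI, at 1.23 and Fn1, encoding fibronectin, at 0.83. Col1a1 and Col1a2, the chains of collagen I, were at -0.039 and -0.063, and Col2a1, of cartilage, was at -0.36, with 0.53 in type A and -1.04 in type B. The cargo median was 0.56 in type A and 0.12 in type B. Leaving out wildtype pool 1 gave 0.60, and leaving out double-null pool 3 gave 0.11. The number past the threshold was 0 without either wildtype pool, without double-null pool 3, in type B alone, with no intensity filter or with a replicate block, and 9 without double-null pool 2. With the deposited scaling, median centring, no array-type term, no intensity trend or the mean over probe sets, 1 cargo gene passed. The difference between cargo and machinery was not tested.

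**Figure D4:**
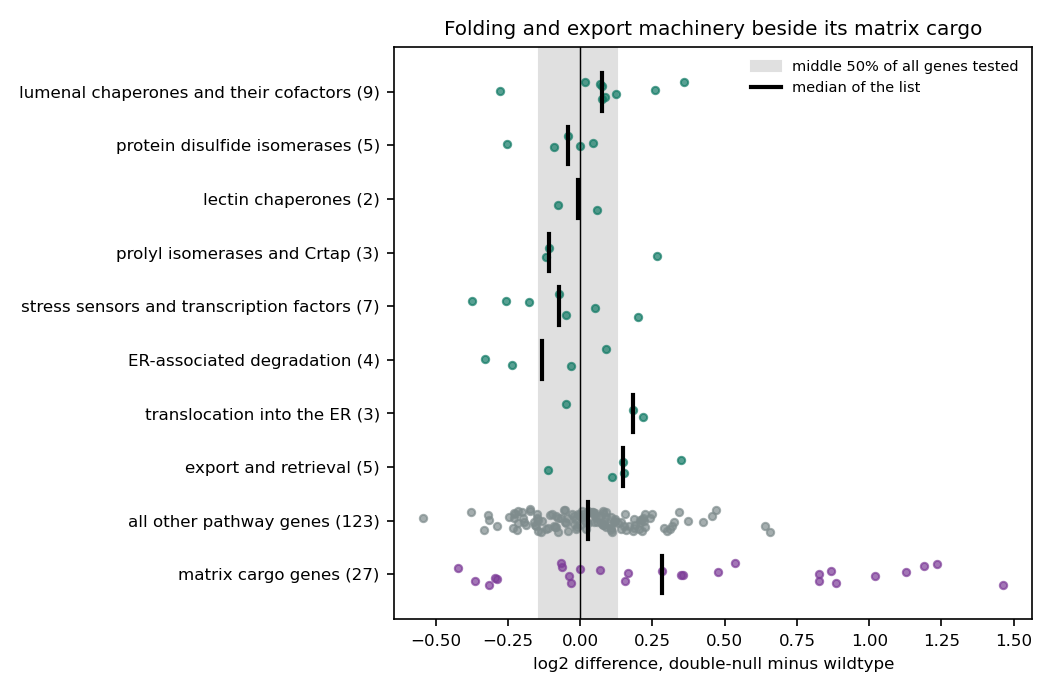
Log2 differences, double-null minus wildtype, of the measured genes of each list, with the number of genes in brackets. Each point is a gene, black bars are medians and the grey band holds the middle 50% of all genes tested; the machinery lists have medians between -0.13 and 0.18, and the cargo list 0.28 with points up to 1.46.

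Markers of the cell types that use the pathway differed between pools, and their part in the values above was not tested. No marker bright enough to be tested passed the threshold. Some markers are also in the lists above. Dcn, Col2a1, Acan, Matn1, Matn3 and Col9a1 are also cargo genes, and Derl3 is also among the other degradation genes. Among 8 plasma cell markers, Jchain, the joining chain of secreted antibody, read 4684, 3689 and 2415 in double-null pools, against 1649 and 2003 in wildtype pools (0.83 ± 0.22, limma adjusted p = 0.29). Ighm was at -0.037 and Irf4 at -0.10, and the list had a median of -0.035 with 3 positive values. Its summed signal ran from 7965 to 9844 in double-null and from 7431 to 7513 in wildtype pools. Jchain was a large part of that sum, and it was the only marker of the list with all double-null pools above both wildtype pools. All 8 fibroblast and tendon markers were positive, with a median of 0.58, Dpt at 0.998, Tnmd at 1.03 and Pdgfrb at 0.59, and a summed signal of 9338 to 10471 in double-null and 6032 to 8191 in wildtype pools. Of the 7 tested 0 passed the threshold, with limma adjusted p from 0.051 for Dpt to 0.89 for Pdgfra. Of 9 chondrocyte markers 7 were negative, with a median of -0.30, Col9a1 at -0.42, Cnmd at -0.43 and Snorc at -0.30, and a summed signal of 7576 to 8796 in double-null and 6838 to 14595 in wildtype pools. That direction was not shared by both array types: the median was 0.10 in type A and -0.54 in type B, and wildtype pool 1 had the high sum of 14595.

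The other marker lists had medians between -0.14 and -0.017. They were 5 osteoblast genes (-0.066, with Sp7 at -0.15, Alpl at -0.11 and Dmp1 at -0.066) and 10 skeletal muscle genes (-0.14, with Myh2 at -0.59, Ckm at -0.45 and Acta1 at -0.32). Summed muscle signal ran from 32292 to 74636 in double-null and from 50856 to 64104 in wildtype pools, so it varied more among the double-null pools, and the muscle median was 0.047 in type A and -0.25 in type B. Myeloid genes had a median of -0.090 over 9 (Elane -0.32, Prtn3 -0.26 and Lcn2 -0.17), erythroid genes -0.017 over 5 (Slc4a1 0.22, Klf1 -0.098 and Alas2 0.047), and adipocyte genes -0.10 over 4 (Fabp4 -0.38 and Adipoq 0.058). Summed signals of osteoblast genes were 4160 to 4484 in double-null and 3867 to 4680 in wildtype pools. Those of myeloid genes were 89074 to 124746 in double-null and 89489 to 143368 in wildtype pools, and those of erythroid genes 15092 to 15706 in double-null and 13089 to 15537 in wildtype pools. Adipocyte genes summed to 2924 to 3136 in double-null and 3535 to 3563 in wildtype pools, with no overlap. Fabp4 was the only gene of these 4 with its groups apart, and Lep and Pck1 were not above the controls on every array. No marker was listed at 0.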

How the data were processed

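Per the labels' protocols, joint RNA was isolated with Trizol and columns, and biotin-labelled targets were read on Affymetrix arrays. The deposited intensity of each probe set is a MAS5 signal, according to the submitters' processing notes, with version and scaling target not given in the sources used here. Of 22690 probe sets 20380 had 1 usable gene symbol, brought up to date by Entrez number from RefSeq's GRCm38.p6 genes. Values were taken as log2(signal + 32) and quantile normalised. The brightest probe set by mean stood for each of 12393 genes, and the 7436 whose mean exceeded the 40th percentile (signal about 98.5) were tested with limma 3.58.1 in R 4.3.3 (lmFit with terms for genotype and array type, trended eBayes, two-sided; residual degrees of freedom 2, prior 9.80; threshold 0.05). Of the members 36 passed this filter. Fkbp11 and Ern1 are from the fit without it. Of 14 members with over 1 probe set above the filter, 8 (Hyou1, Dnajc3, Atf4, Edem1, Sel1l, Sec61a1, Ssr1 and Kdelr2) had probe sets that differed in sign. The code of the fit was checked on simulated data with independent normal noise, the fit's own variances and an additive array-type shift. Such data follow the fitted model, so they cannot show whether that model suits the real pools.

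Members and lists were chosen with earlier results of these data known. All members are named. Each pool's value is given at least for those whose groups were apart, or else for the 2 with the smallest p of a role. Up to 3 genes with the smallest p are named per other list. A further few were named after their values were seen. Promoters are from RefSeq, and protein sequences were not used here. Promoters were also searched for the composite site TGATGNAA of stress-responsive ATF4 targets, found in 1 member, Herpud1, and in 4.51% of all genes. Alternatives were the scaling, pseudocounts of 1 and 128, the filter, the array-type term, the intensity trend, the probe set rule, a replicate block and leaving out each pool.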

Additional observations from a re-analysis of the deposited data

How the results depend on the processing

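Under all 16 alternatives 0 members passed the threshold, and their median stayed between -0.034 and 0.053. Without single pools it ran from -0.034 (wildtype pool 1) to 0.050 (double-null pool 3). Of the 38 members 12 kept 1 sign in all alternatives: Hspa5, Hsp90b1, Dnajb9, Creld2, Ppib and Sec24d higher, and Sdf2l1, Atf6, Atf4, Herpud1, Syvn1 and Sec13 lower. The share of all genes that did so was not computed. Several alternatives repeat 1 array type, so the count largely restates the 14 members with 1 sign on both types. Of 608 member values 66 turned sign, none of them past the threshold. Where arrays were left out, the brightest probe set was chosen again over the remaining arrays. A turned sign there can also come from a change of probe set. Hspa5 ran from 0.034 to 0.62 and Sec24d from 0.27 to 0.52. At an unadjusted p of 0.05 Hspa5 and Dnajc3 passed on array type B alone and when wildtype pool 2 or double-null pool 3 was dropped, Atf6 without double-null pool 1, and Atf6 and Sec24d with the mean over probe sets. Of all genes, 9 passed in the fit described, 5 with the deposited scaling or no intensity trend, 4 without the array-type term, and 2 without the filter or on array type B alone. Without single pools the count ran from 2 (wildtype pool 2) to 52 (double-null pool 2), with 18 when double-null pool 1 was dropped and 3 when wildtype pool 1 or double-null pool 3 was. With a replicate block in place of the array-type term 0 genes and 0 members passed (limma; 484 genes, Hspa5 and Sec24d among them, at an unadjusted p of 0.05). The labels used here give same-numbered pools no link beyond the number. Their deviations from group means correlated at 0.0048 (pools 1) and -0.18 (pools 2). These values cannot decide whether pools were paired. The deviations of the 2 wildtype pools mirror each other, and these pools were of different array types. Dropping 1 of the type A arrays leaves the other with no partner, so those settings nearly repeat array type B alone. Dropping wildtype pool 1 leaves type B with no wildtype array, so that setting nearly repeats the type A differences. The causes of these moves were not tested. The cargo counts were added after the values were seen.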
